A study of Mus musculus with 12 samples.

Results

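The Mage-A antigen family comprised 6 genes on the array, Magea1, Magea2, Magea3, Magea5, Magea6 and Magea8, measured by 10 of 45281 probes on 12 arrays of NSC-34 cells. Every probe annotated to a member symbol was taken, and the probes are given one by one, since transcripts of near-identical members may bind each other's probes. The family was picked because of the intensities of Magea5 in the 3 lines compared here, so the values of its members are a description and carry no p-value. NSC-34 is a motor neuron-like hybrid of mouse neuroblastoma and embryonic spinal cord cells, and 3 stable lines of it were compared with 4 arrays each. NSC-34/shPGRN cells (shPGRN) carry a short hairpin RNA against mouse Grn in the pRS vector, under puromycin selection. NSC-34/hPGRN cells (hPGRN) overexpress human progranulin (PGRN) from pcDNA3, under G418 selection. Control cells carry an empty vector, and the sources used here do not give which of those vectors it was. All flasks were plated with 200000 cells, stepped down through lower serum and held for the last 24 h in 1% serum. The 4 arrays of a line are sub-cultured flasks of 1 transfected line, so SDs and p-values measure the spread between flasks, and vector, selection drug and PGRN level cannot be told apart. PGRN is a secreted and lysosomal growth factor.

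MAGE proteins share a MAGE homology domain, by which several human members bind RING-type ubiquitin ligases. Type I members, among them the Mage-A genes, lie on the X chromosome and are known as cancer-testis antigens, because healthy adult tissue other than the germ line hardly transcribes them while many tumors do. In human cells their silence is kept in large part by DNA methylation of their promoters. Type II members are transcribed in many tissues, including brain.

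In the RefSeq annotation the members lie along the X chromosome in the order Magea6, Magea3, Magea8, Magea2, Magea5 and Magea1. The 250 bases before the annotated start of the members whose probes were brightest are shown, because the probes of Magea8 and Magea2 followed a like course across the lines and that of Magea5 another. Sequences are RefSeq, build GRCm38.p6, in the direction of transcription. Capitals mark CG dinucleotides and the core GGAAG of ETS factor motifs, read on both strands as GGAAG or CTTCC.
Magea8, chrX:154995851-154996100, minus strand: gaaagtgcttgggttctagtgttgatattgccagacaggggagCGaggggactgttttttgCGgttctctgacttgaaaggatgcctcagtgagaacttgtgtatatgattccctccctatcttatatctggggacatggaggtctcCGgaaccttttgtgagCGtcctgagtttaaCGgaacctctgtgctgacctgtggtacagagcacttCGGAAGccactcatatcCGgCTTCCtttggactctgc
Magea2, chrX:155033293-155033542, minus strand: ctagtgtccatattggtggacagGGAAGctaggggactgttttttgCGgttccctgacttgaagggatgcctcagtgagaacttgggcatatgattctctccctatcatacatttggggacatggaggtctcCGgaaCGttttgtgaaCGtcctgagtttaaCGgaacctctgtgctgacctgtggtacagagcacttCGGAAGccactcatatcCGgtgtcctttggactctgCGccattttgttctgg
Magea5, chrX:155061554-155061803, minus strand: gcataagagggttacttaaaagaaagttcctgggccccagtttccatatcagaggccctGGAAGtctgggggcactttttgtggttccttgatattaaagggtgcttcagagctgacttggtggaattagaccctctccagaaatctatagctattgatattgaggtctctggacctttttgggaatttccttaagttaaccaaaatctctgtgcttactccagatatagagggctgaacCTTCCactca
The Magea8 and Magea2 stretches were near copies of each other, with 216 identical bases, 19 mismatches and 30 gap columns in a global alignment (81.5% of its columns identical). Magea5 matched Magea8 at 57.3% of columns and Magea2 at 47.4%. Gaps at the window ends were charged like any other, so alike stretches that are displaced between windows may be aligned out of register. A low share therefore does not show that a pair of windows is unlike. The closest pair among the others was Magea3 and Magea1, at 84.1% of columns, and the other 11 pairs, of 15 in all, lay between 47.7% and 53.5%. Magea8 held 7 CG dinucleotides, Magea2 8, Magea6 1, and Magea5, Magea3 and Magea1 had 0. Of 32851 promoter windows of this length 7.87% had no CG. The median was 6 over all windows and 14 over the windows of genes tested on the array. Magea8, Magea2 and Magea5 each held 2 matches to GGAAG, and 29.4% of all windows held at least 2. At least 1 match was present in 64.1% of all windows and in 5 members, all but Magea1. The E-box CACGTG, the E2F-type sequence GGCGGGAA and the TATAAA box, present in 6.02%, 1.86% and 12.4% of all windows, had no match in any member.

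A set of 3 member probes lay above background on all 12 arrays, and they followed different patterns. Intensities are the deposited linear values, and each probe has its own scale, so they are compared between lines and not between probes. The probe ILMN_2824926 of Magea2, a type I member whose human namesake is reported to act on p53, was high in both modified lines. Its intensity was 754.2, 969.4, 895.6 and 835.4 in shPGRN cells, 645.0, 632.6, 644.2 and 692.1 in hPGRN cells, and 73.3, 56.4, 49.5 and 65.9 in control cells. No array of one line overlapped with those of another. The means were 864 ± 91.3 in shPGRN, 653 ± 26.3 in hPGRN and 61.3 ± 10.4 in control cells (SD, n = 4 arrays), so the deposited means stood 14.1-fold and 10.7-fold above the control mean, and that of shPGRN 1.32-fold above that of hPGRN cells. In bulk RNA, fewer cells with a transcript and less transcript per cell cannot be told apart.

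The probe ILMN_2687002 of Magea8, the neighbor of Magea2 on the chromosome, was also far above control cells, and did not separate the modified lines. It read 679.8, 545.3, 638.0 and 697.6 in shPGRN cells, 686.3, 621.6, 786.5 and 646.5 in hPGRN cells, and 39.3, 26.5, 56.0 and 64.2 in control cells. The ranges of the modified lines overlapped, and both lay clear of the control arrays. Means were 640 ± 68.0 in shPGRN, 685 ± 72.6 in hPGRN and 46.5 ± 16.9 in control cells (SD, n = 4), which put shPGRN cells at 0.934 times the hPGRN mean and at 13.8 times the control mean.

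The probe ILMN_2914608 of Magea5, the value behind the choice of the family, stepped through the lines. It read 530.1, 565.9, 537.7 and 652.2 in shPGRN cells, 101.5, 92.2, 96.0 and 100.8 in hPGRN cells, and 43.1, 14.3, 27.7 and 43.2 in control cells. All 3 ranges were apart, with shPGRN arrays far above the rest. The means of 571 ± 56.0 in shPGRN, 97.6 ± 4.39 in hPGRN and 32.1 ± 13.9 in control cells (SD, n = 4) corresponded to 5.85-fold between shPGRN and hPGRN cells, 17.8-fold between shPGRN and control cells and 3.04-fold between hPGRN and control cells.

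**Figure D1:**
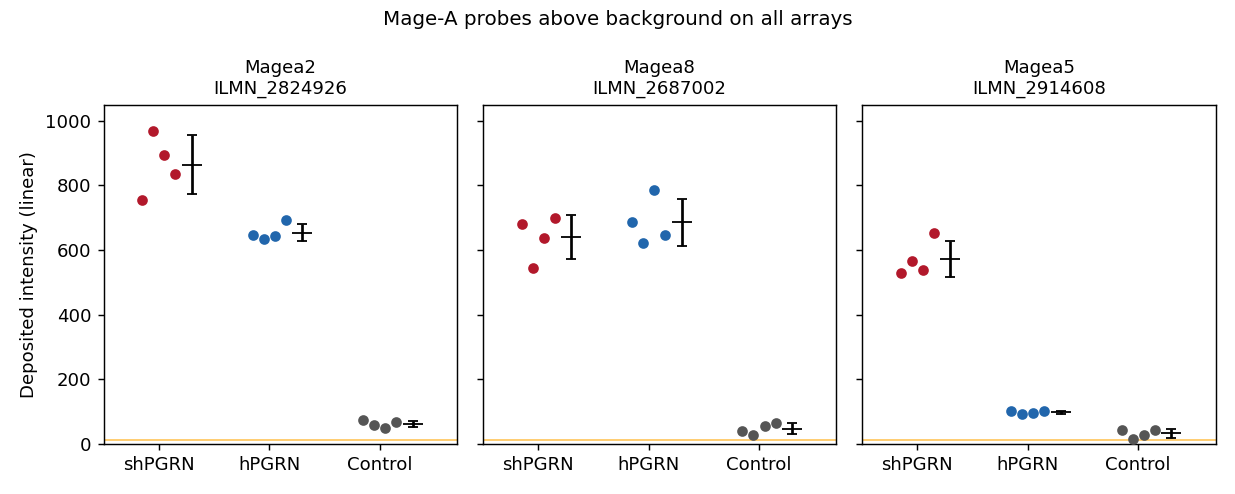
Deposited linear intensity (y axis) of the Magea2, Magea8 and Magea5 probes that were above background on all arrays, with 1 point per array, horizontal bars with whiskers for mean ± SD of 4 arrays, and an orange band for the background limits of 11.3 to 12.3. Magea2 and Magea8 are high in shPGRN and hPGRN cells, and Magea5 is high in shPGRN cells, at 530.1 to 652.2.

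On the log2 scale used for testing, which adds an offset of 50 and so shrinks the folds of dim values, the order of the lines was the same for each of these probes. Magea2 differed by 0.36 between shPGRN and hPGRN cells, by 2.81 between shPGRN and control cells and by 2.45 between hPGRN and control cells (SE 0.10 for each). For Magea8 the same differences were -0.09, 2.59 and 2.68 (SE 0.11). For Magea5 they were 1.92, 2.63 and 0.71 (SE 0.10). Among the differences of all 21150 probes above background on at least 4 arrays, counted from the highest, Magea5 came 7th in shPGRN against hPGRN cells, where Magea2 came 847th and Magea8 14605th. Against control cells shPGRN placed Magea2 3rd, Magea5 5th and Magea8 7th, and hPGRN placed Magea8 4th, Magea2 5th and Magea5 53rd. As background, the arrays of shPGRN lay above those of hPGRN cells without overlap for 8% of these probes, shPGRN above control for 7.76% and hPGRN above control for 5.79%. Nothing is read from these shares about the members, since the family was picked on the same arrays.

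**Figure D2:**
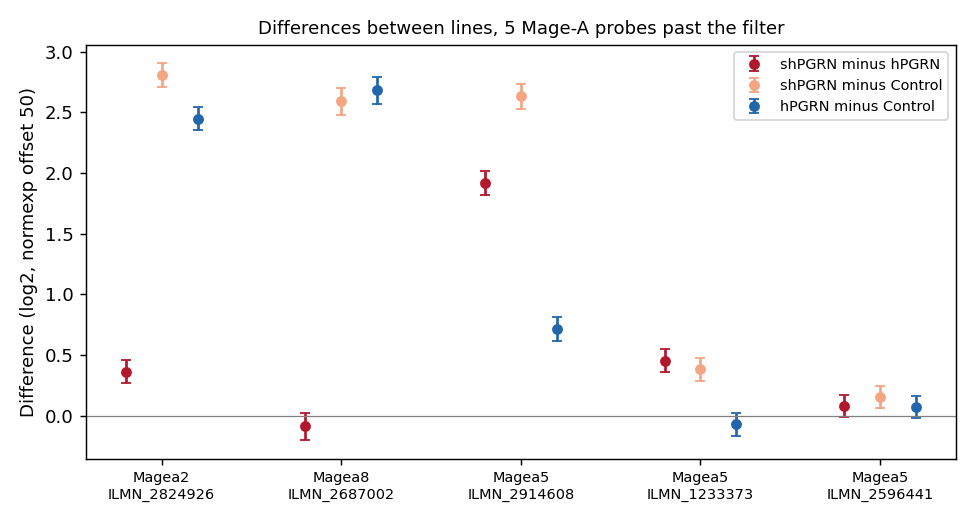
Differences between line means (y axis, log2 after normexp with an offset of 50) for the 5 Mage-A probes past the filter, with whiskers for the SE of the limma fit over all probes past the filter. Magea2 and Magea8 have differences of 2.45 to 2.81 from control in both modified lines, while Magea5 probe ILMN_2914608 has 2.63 in shPGRN and 0.71 in hPGRN cells.

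Ratios of the bright probes on the same array, where labelling and hybridization are shared, are given as a description. The family was picked on the Magea5 values of these lines, so a Magea5 ratio that differs between lines, control cells included, may repeat that choice. Magea5 over Magea2 was 0.703, 0.584, 0.60 and 0.781 in shPGRN cells, 0.157, 0.146, 0.149 and 0.146 in hPGRN cells, and 0.589, 0.254, 0.559 and 0.656 in control cells. The hPGRN ratios lay below those of both other lines, with no overlap, and shPGRN and control ratios overlapped. The mean ratios were 0.667 ± 0.0924 in shPGRN, 0.149 ± 0.00552 in hPGRN and 0.514 ± 0.178 in control cells (SD, n = 4). Magea2 over Magea8 varied less between the lines, at 1.37 ± 0.297 in shPGRN, 0.962 ± 0.109 in hPGRN and 1.48 ± 0.614 in control cells. Here shPGRN arrays, from 1.11 to 1.78, lay above hPGRN arrays, from 0.819 to 1.07, and the control arrays spanned both. The control ratios rest on dim values, since Magea5 in replicate 2 of that line, at 14.3, was close to the background limit.

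**Figure D3:**
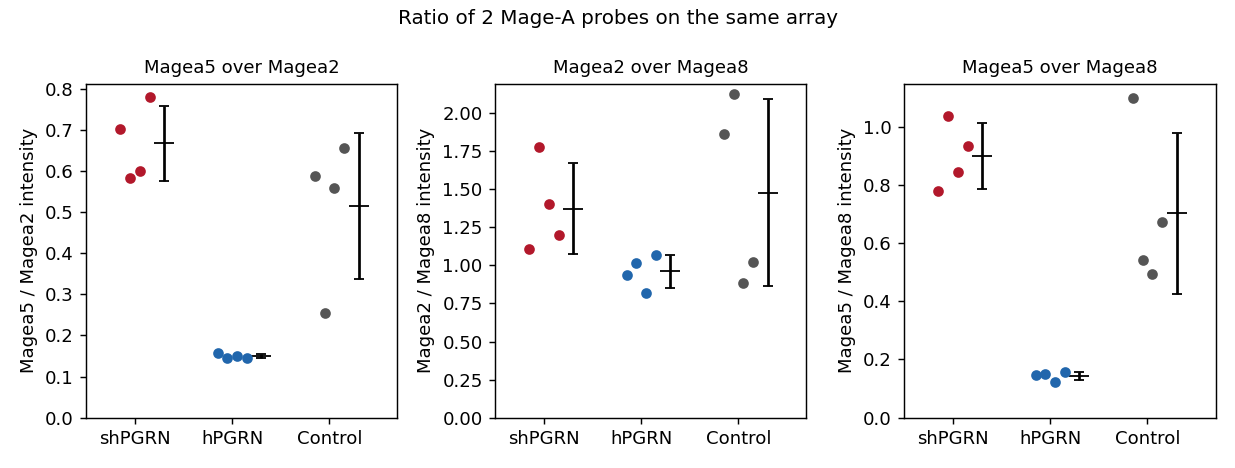
Ratio of deposited intensities of 2 Mage-A probes on the same array (y axes), with 1 point per array and mean ± SD of 4 arrays beside it. Magea5 over Magea2 and Magea5 over Magea8 are lowest in hPGRN cells, where they are 0.146 to 0.157 and 0.122 to 0.156.

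The other 7 member probes were at or near background. A probe passed the filter if it exceeded its array's background limit, 11.3 to 12.3, on at least 4 arrays, which 5 of the 10 member probes and 21150 of all 45281 probes did. A pair of Magea5 probes passed on exactly 4 arrays. ILMN_1233373 read 27.4, 14.3, 14.2 and 28.7 in shPGRN cells, all above background, and between -7.97 and 6.11 in hPGRN and between -4.03 and 2.31 in control cells, none above background. As a bound against the background limit it was at least 1.11-fold higher in shPGRN cells than in each of the other lines. ILMN_2596441 read 15.4, 15.1, 8.45 and 13.7 in shPGRN cells, 18.4, 4.39, 0.787 and 11.7 in hPGRN cells and at most 7.83 in control cells, and was above background on 3, 1 and 0 arrays of the lines in that order. The ranges of the modified lines overlapped. Of the 3 Magea5 probes, only ILMN_2914608 was measured in all lines.

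The 5 probes that missed the filter had 6 of 60 values above background, spread over all lines. Just outside it, the Magea6 probe ILMN_2694973 was above background on 3 arrays (1 shPGRN, 2 hPGRN) and the Magea3 probe ILMN_2767393 on 2 (1 of each modified line). A second Magea8 probe, ILMN_2770293, was above background on 1 control array, at 17.4, and the Magea1 probe ILMN_2763422 and a second Magea2 probe, ILMN_1223576, on none. Their intensities ranged from -15.5 to 27.7 in shPGRN, -16.6 to 18.5 in hPGRN and -17.7 to 17.4 in control cells, so the ranges of the lines overlapped. The second probes of Magea2 and Magea8 therefore did not follow the bright probes annotated to the same genes. Which transcript or stretch each probe targets was not examined, because probe sequences were not used here.

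**Figure D4:**
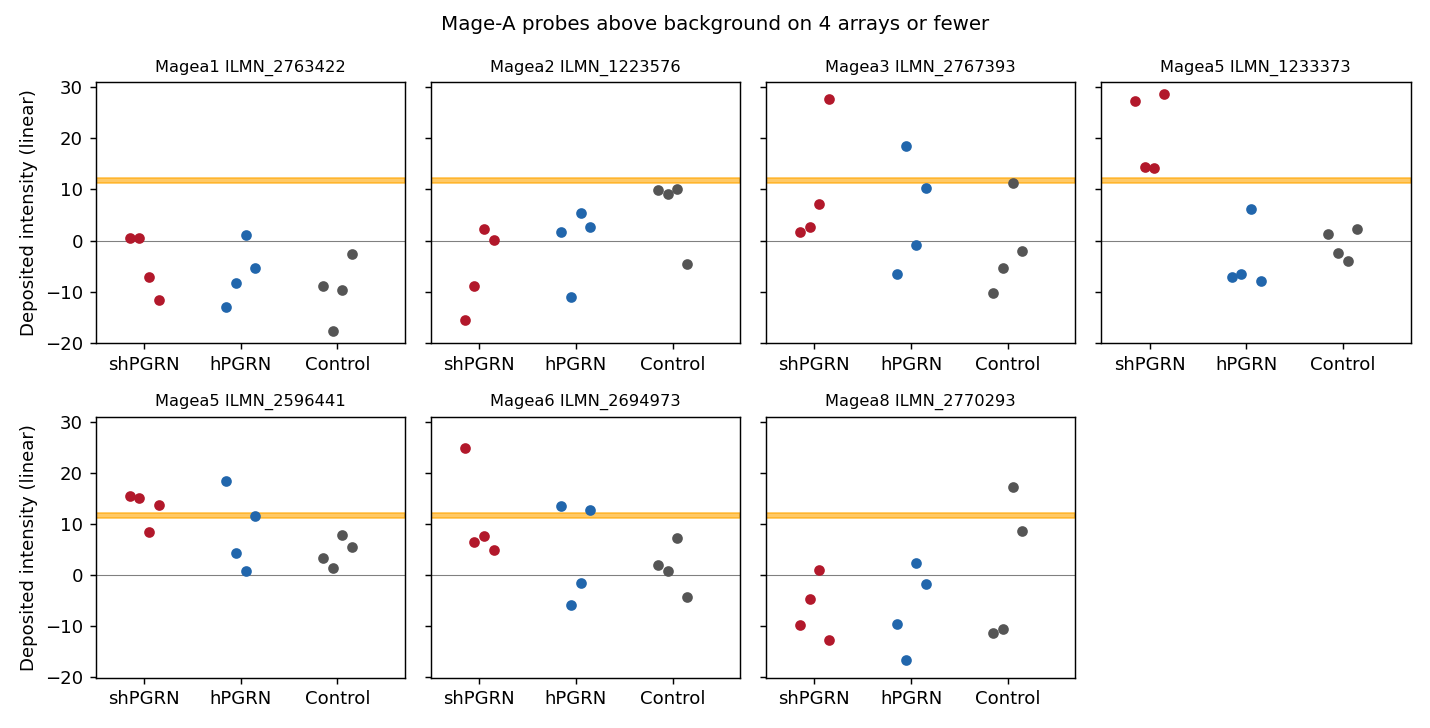
Deposited linear intensity (y axis) of the 7 Mage-A probes that exceeded background on at most 4 arrays, with 1 point per array, a grey line at 0 and an orange band for the background limits. Only the Magea5 probe ILMN_1233373 has all 4 shPGRN arrays above the band, at 14.2 to 28.7.

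Grn, the gene targeted by the hairpin, was checked first among the other genes. Its mouse probe read 646, 635, 665 and 502 in shPGRN, 922, 1273, 1043 and 956 in hPGRN and 896, 899, 811 and 942 in control cells. The knockdown arrays lay below those of hPGRN (log2 change -0.71 with an SE of 0.11 in limma, adjusted p = 6.26e-05) and of control cells (-0.49, SE 0.11, adjusted p = 0.00251). The probe was designed for the mouse transcript, and the PGRN added to hPGRN cells is human. Each array had between 19544 and 20111 probes above background, with medians of 7.86 to 7.92. The authors had already normalized the deposited values, so these near-equal numbers are no measure of array quality. Germ cell markers were near background in all lines: 4 of 8 passed the filter, Sycp3, Mael, Stra8 and Tex101 did not, and their summed intensity was 27.8 to 73.2 in shPGRN, 48.3 to 67.6 in hPGRN and 33.9 to 82.6 in control cells. Neuron markers passed the filter for 6 of 10 genes, with Nefl, Tubb3, Snap25 and Chat not above it, and summed to 6050 to 7050 in shPGRN, 8811 to 9318 in hPGRN and 8156 to 8609 in control cells. Of these 6, limma called 5 lower in shPGRN than in hPGRN cells, where 6.88% of all genes were called lower, and 4 lower and 1 higher than in control cells, where 6.68% were lower and 7.15% higher. Between hPGRN and control cells 1 of the 6 was higher, against 3.63% of all genes. Their sum was thus lowest in the line with the highest Magea5, and their part in the Mage-A values was not tested. Summed markers reached 441 in shPGRN, 412 in hPGRN and 442 in control cells for fibroblasts, with Col1a1, Col3a1, Dcn and Lum not past the filter, and at most 107 in every line for macrophages and for glia. Of the 4 tested fibroblast markers limma called 1, Thy1, which neurons also express, lower than control in both modified lines.

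No other tested member of the MAGE superfamily was called higher in either modified line. Of the other type I genes 7 were on the array with 13 probes, and 15 of their 156 values exceeded background, from -20.2 to 28.4. Only Mageb3 could be tested, and it was not called in any comparison, with intensities of -8.92 to 12.1 in shPGRN, -4.01 to 18.7 in hPGRN and -13.4 to 16.5 in control cells. Of 6 tested type II genes, none was called between shPGRN and hPGRN cells, where 6.56% of all 11478 tested genes rose and 6.88% fell. Against control cells 2 fell in shPGRN and 1 in hPGRN cells and none rose. Of all genes 7.15% rose and 6.68% fell in shPGRN cells, and 3.63% rose and 3.15% fell in hPGRN cells. Maged2, needed in humans for salt transport in the kidney, read 3260, 3240, 3240 and 3417 in shPGRN, 3575, 3572, 3769 and 3775 in hPGRN and 4818, 4287, 4375 and 4753 in control cells. The lines did not overlap, and limma called it lower than control in shPGRN (log2 change -0.46 with an SE of 0.08, adjusted p = 0.00051) and hPGRN cells (-0.30, SE 0.08, adjusted p = 0.0275). Tro, which encodes the adhesion protein trophinin, was lower in shPGRN than in control cells (log2 change -0.44 with an SE of 0.12 in limma, adjusted p = 0.0151), with 543 ± 51.0 against 775 ± 168 (SD, n = 4). The adjusted p of Maged2 in hPGRN cells and that of Tro passed 0.05 when single arrays were left out, up to 0.0824 and 0.0625.

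Other genes known from germ cells and tumors were mostly below background. Of 81 listed, 70 were on the array and 25 were tested. Between shPGRN and hPGRN cells 8% of these were called (against 13.4% of all genes). The shares were 4% between shPGRN and control cells (against 13.8%) and 8% between hPGRN and control cells (against 6.78%). Between shPGRN and hPGRN cells 2 rose, Tdrd5, a Tudor protein of germ granules (log2 change 0.38 with an SE of 0.10 in limma, adjusted p = 0.0105), and Rec8, a subunit of meiotic cohesin (0.32, SE 0.10, adjusted p = 0.0272). Tdrd5 was dim, at 30.8 to 41.5 in shPGRN and -4.44 to 20.4 in hPGRN cells. The size of its change depended on the processing and reached 1.02. Against control cells Dcaf8l fell in shPGRN cells (limma adjusted p = 0.0158). None of its shPGRN arrays, from -18.8 to 6.39, was above background, against 13.96 to 27.8 in control cells, so only a bound can be given, at least 1.09-fold higher in control cells, and with the deposited values floored at 16 it missed the threshold (limma adjusted p = 0.379). Against control cells Rec8 fell in hPGRN cells (log2 change -0.46, SE 0.10, limma adjusted p = 0.00477) and Tdrd6, another Tudor protein, rose (0.39, SE 0.11, adjusted p = 0.0336). Tdrd6 was dim as well, at 25.5 to 39.7 in hPGRN and 0.67 to 21.5 in control cells, and its change reached 0.97 with other processing. Only the fall of Rec8 remained called under every alternative. The median log2 fold changes of the list were 0.02, 0.00 and -0.03 in shPGRN against hPGRN, shPGRN against control and hPGRN against control cells, beside 0.00, -0.00 and -0.00 over all genes. Some germline genes on this list had high intensities in all lines and did not pass the test, and 2 of them are named here after their values were seen. Rhox5, an X-linked homeobox gene of testis and placenta, averaged 6301 ± 558 in shPGRN, 5815 ± 1002 in hPGRN and 5729 ± 508 in control cells. Xlr4a, from another X-linked family, averaged 4857 ± 248, 5297 ± 287 and 4865 ± 470 in the same order of lines, with adjusted p from 0.434 to 0.996.

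None of the 6 tested genes nearest to the family on the X chromosome was called. Of all genes, 13.4%, 13.8% and 6.78% were called in shPGRN against hPGRN, shPGRN against control and hPGRN against control cells. At those shares nothing is read from the lack of a call among 6 genes. Of the 3 coding genes closer to the members than these 6, only Cldn34b2 had a probe, and it did not pass the filter. The nearest tested genes, 174 to 1200.4 kb away by annotated position, were Nbdy, Spin2c and Gm15142 before the members and Acot9, Prdx4 and Gm15155 after them, and limma called none of the 6 in any of the comparisons (adjusted p from 0.161 to 0.983). Nbdy, which encodes a peptide of mRNA decapping bodies, averaged 3907 ± 239 in shPGRN, 3894 ± 185 in hPGRN and 4379 ± 237 in control cells. Prdx4, a peroxidase of the endoplasmic reticulum, averaged 6254 ± 286, 6144 ± 437 and 5948 ± 554 in the same order. The other 4 were dim, with line means of 3.50 to 35.7. Among the members themselves, Magea8, Magea2 and Magea5 stand side by side in the middle of the order, and the probes of Magea6, Magea3 and Magea1, which flank them, did not pass the filter.

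Of the enzymes and readers of DNA methylation, which in human cells help to silence Mage-A promoters, 12 could be tested. Between shPGRN and hPGRN cells 1 rose (8.33% called, against 13.4% of all genes), and 1 rose between shPGRN and control cells (8.33% against 13.8%). None passed between hPGRN and control cells (0% against 6.78%). With 12 genes, nothing is read from these shares about the list. The maintenance methyltransferase Dnmt1 averaged 926 ± 109 in shPGRN, 883 ± 133 in hPGRN and 843 ± 204 in control cells (SD, n = 4), and did not pass the test (limma adjusted p from 0.542 to 0.816). The de novo methyltransferase Dnmt3b averaged 225 ± 6.19, 196 ± 27.0 and 181 ± 42.0 in the same order (limma adjusted p from 0.140 to 0.700), and Dnmt3a was not past the filter. Uhrf1, which guides Dnmt1 to replicated DNA, averaged 3635 ± 295, 3451 ± 214 and 2951 ± 586 (limma adjusted p from 0.0720 to 0.750). The gene that rose in shPGRN against hPGRN cells was Cdca7, a partner of the remodeler HELLS (log2 change 0.35 with an SE of 0.10 in limma, adjusted p = 0.0179). Mbd1, a methyl-CpG binding protein, rose against control cells (0.33, SE 0.10, limma adjusted p = 0.0364), but the mean of its 3 kept probes gave 0.07 with an adjusted p of 0.582.

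Among silencing factors of germline genes, Rybp had the smallest adjusted p against each of the other lines in shPGRN cells. Rybp, a subunit of Polycomb repressive complexes of the PRC1 type, read 554, 449, 598 and 529 in shPGRN, 845, 942, 785 and 901 in hPGRN and 896, 860, 804 and 750 in control cells. The shPGRN arrays lay below all others. Rybp fell relative to hPGRN (log2 change -0.64 with an SE of 0.10 in limma, adjusted p = 7.12e-05) and to control cells (-0.58, SE 0.10, adjusted p = 0.000211). Between hPGRN and control cells Rybp missed the threshold (0.06, SE 0.10, limma adjusted p = 0.788). Other genes of the list that fell in shPGRN cells did so in 1 comparison each, E2f6, a repressor of germline genes, against hPGRN cells (log2 change -0.31 with an SE of 0.09 in limma, adjusted p = 0.0181), and Yaf2 (-0.35, SE 0.10, adjusted p = 0.0175) and Pcgf6 (-0.30, SE 0.09, adjusted p = 0.0249) against control cells. Leaving out single arrays took the adjusted p of these 3 past 0.05, to at most 0.0612, 0.0686 and 0.0885. Smchd1, a chromatin protein of the inactive X chromosome, was higher in shPGRN cells, at 792 ± 58.0 against 611 ± 38.2 in hPGRN cells (limma adjusted p = 0.0136) and 560 ± 49.3 in control cells (limma adjusted p = 0.00138), although the mean of its 3 kept probes gave adjusted p-values of 0.316 and 0.189. Trim28, a corepressor that human MAGE proteins bind, did not pass the test in any comparison (limma adjusted p from 0.299 to 0.816). Of the 27 tested genes of the list 1 rose and 2 fell between shPGRN and hPGRN cells (11.1% called, against 13.4% of all genes), 1 rose and 3 fell between shPGRN and control cells (14.8% against 13.8%), and none passed between hPGRN and control cells (0% against 6.78%), so the shares were near or below those of all genes.

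RING ligases and reported partners of MAGE proteins moved singly. Pias4, a SUMO ligase, read 342, 345, 391 and 311 in shPGRN, 266, 314, 287 and 270 in hPGRN and 181, 206, 162 and 206 in control cells, so that both modified lines lay above every control array. It rose in shPGRN (log2 change 0.69 with an SE of 0.09 in limma, adjusted p = 1.69e-05) and hPGRN cells (0.45, SE 0.09, adjusted p = 0.0038), and the difference between them did not pass (0.23, SE 0.09, adjusted p = 0.102). Trim27, the RING ligase that MAGEL2 binds in human cells, read 881, 875, 870 and 840 in shPGRN, 616, 646, 589 and 596 in hPGRN and 1012, 920, 1087 and 897 in control cells. It was lower in hPGRN than in control cells (log2 change -0.62 with an SE of 0.09 in limma, adjusted p = 6.81e-05) and higher in shPGRN than in hPGRN cells (0.46, SE 0.09, adjusted p = 0.000764). The ubiquitin ligase Pja2 was lower in shPGRN than in hPGRN cells (log2 change -0.46 with an SE of 0.11 in limma, adjusted p = 0.00512) and higher in hPGRN than in control cells (0.40, SE 0.11, adjusted p = 0.0242). Mdm2, the ligase of p53, was higher in shPGRN than in control cells (log2 change 0.34 with an SE of 0.10 in limma, adjusted p = 0.0289). The other tested genes of the 19 on this list were not called, which left 10.5% called between shPGRN and hPGRN cells, 10.5% between shPGRN and control cells and 15.8% (3 genes) between hPGRN and control cells, against 13.4%, 13.8% and 6.78% of all genes.

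**Figure D5:**
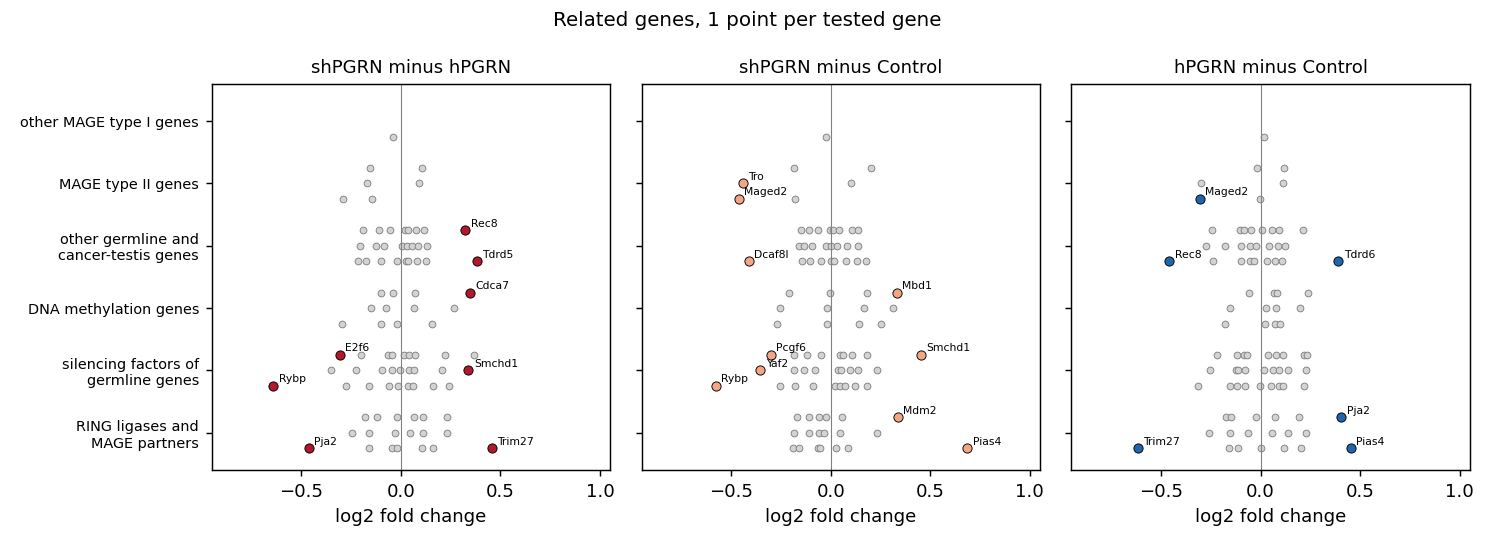
Log2 fold change (x axis) of every tested gene of the 6 related lists (rows) in the 3 comparisons, with colored and named points for genes at a limma adjusted p under 0.05 and grey points for the rest. Rybp is the lowest point in both panels of shPGRN cells, at -0.64 and -0.58, and Trim27 in the panel of hPGRN against control cells, at -0.62.

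Over all 89 tested genes of the lists, 5 rose and 3 fell between shPGRN and hPGRN cells (8.99% called, against 13.4% of all genes tested), 4 rose and 6 fell between shPGRN and control cells (11.2% against 13.8%) and 3 rose and 3 fell between hPGRN and control cells (6.74% against 6.78%). These shares were at or below those of all genes.

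Genes outside the family with the most similar course across the 3 lines were sought by the distance, in log2 units, between their pair of differences (shPGRN minus hPGRN, and hPGRN minus control) and that of a member. For the Magea2 probe the 6 nearest of all tested genes were Erdr1 (distance 0.82), Fbp2, Vmn1r123, Gadd45g, Chrna3 and Sct (1.31). Erdr1 averaged 826 ± 75.5 in shPGRN, 914 ± 69.0 in hPGRN and 212 ± 35.3 in control cells, and Fbp2, the muscle fructose bisphosphatase, 538 ± 107, 545 ± 74.4 and 121 ± 28.6 in the same order. For the Magea8 probe, looked at after the values were seen, the nearest were Gadd45g (0.64), Erdr1 (0.88) and Fbp2 (1.00). Gadd45g, a stress-induced growth arrest gene, averaged 476 ± 93.3 in shPGRN, 712 ± 31.3 in hPGRN and 16.8 ± 4.74 in control cells. For the Magea5 probe, likewise added later, the nearest were other genes: Crispld2 (0.48), Prkdc (0.55), Fam163a (0.63), Retsat (0.72), Calb2 (0.78) and Dtna (0.86). Calb2 had no hPGRN or control array above background, and Dtna had 1 in each line, so their differences between these lines rest on background values. Crispld2, and Vmn1r123 among the genes near Magea2, were above background on only 1 control array. Prkdc, which encodes the DNA repair kinase DNA-PKcs, averaged 287 ± 39.4 in shPGRN, 65.9 ± 17.8 in hPGRN and 17.6 ± 8.57 in control cells. The 6 genes nearest to Magea5 were none of those nearest to Magea2 or Magea8, which the distances between the member probes themselves had already fixed. Likeness over 3 lines is a description of these arrays.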

How the data were processed

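The authors hybridized RNA of 12 flasks to Illumina MouseWG-6 v2 arrays and deposited 1 table of linear intensity values, some below 0, for 45281 probes. Their methods name lumi normalization, and none of the sources used here gives the steps behind this table. A second table of non-normalized signals has 24 value columns whose names match no sample, and was not used. Probe symbols came from the platform annotation (34885 probes with 1 symbol, 18 with several, 10378 with none), and 34807 Entrez IDs matched RefSeq. The members, lists and alternatives were chosen with earlier results of these data known.

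The background limit of an array was taken from where its values were densest and their spread below that point (one-sided 0.05 of a normal distribution). Values were corrected with normexp (offset 50, which turns a deposited 0 into 72.2), quantile-normalized and taken to log2 in limma 3.58.1 (R 4.3.3). A probe was kept when above background on at least 4 of 12 arrays, and the kept probe of highest mean stood for its gene. limma was fitted to all arrays with 1 mean per line, and p-values were adjusted by Benjamini-Hochberg over 11478 genes, called at 0.05. For members, differences and SEs came from the same model over 21150 probes, without p-values. Fit and adjustment were tested on simulated data. Where a line had no array above background for a probe, a bound is given. Named are every member probe, up to 4 called genes per list and comparison, Dnmt1, Dnmt3a, Dnmt3b, Uhrf1, Trim28, the 3 tested genes on each side of the family and the 6 genes most like a member. The listed Pet2 is named Dcaf8l in RefSeq. Promoter windows were aligned globally (match 1, mismatch -1, gap -2). The number of arrays limits precision. Alternatives changed the offset or floor, scaling, filter, probe of a gene, arrays in the fit, array weights and a block for replicate number.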

Additional observations from a re-analysis of the deposited data

Results flagged for a closer look

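In a line of 4 arrays, 1 array far from the other 3 was looked for in the 5 member probes past the filter and in Grn, 18 sets in all, and 1 was found, about as many as chance gives at 1 in 20. The Magea5 probe ILMN_1233373 read 6.11 in replicate 3 of hPGRN cells, while the other arrays of that line read -7.11, -6.60 and -7.97. All of these values were below the background limit.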

How the results depend on the processing

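The member differences kept their sign under every alternative for the Magea2, Magea8 and Magea5 probes above background on all arrays. Their size depended on how dim values were treated. With a normexp offset of 16 in place of 50, the Magea2 differences from control became 3.18 in shPGRN and 2.80 in hPGRN cells, those of Magea8 3.02 and 3.11, those of Magea5 3.14 and 0.97, and Magea5 in shPGRN against hPGRN cells 2.16. With the deposited values floored at 16 and no normexp, the same differences were 3.83, 3.43, 3.86, 3.96, 4.24, 1.69 and 2.55. Leaving out single arrays gave 0.31 to 0.42, 2.75 to 2.87 and 2.40 to 2.49 for Magea2 in shPGRN against hPGRN, shPGRN against control and hPGRN against control cells, -0.13 to -0.02, 2.51 to 2.66 and 2.60 to 2.75 for Magea8, and 1.86 to 1.95, 2.55 to 2.68 and 0.63 to 0.77 for Magea5. Among the dim Magea5 probes, ILMN_2596441 turned from 0.08 to -0.05 between shPGRN and hPGRN cells with the floor, and its difference between shPGRN and control cells was then 0.

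Leaving out single arrays gave 503 to 843 called genes between hPGRN and control cells, against 778 with all arrays, with 504 without hPGRN replicate 4 and 503 without control replicate 3. Related genes called numbered 6 to 10 in shPGRN against control cells, against 10 with all arrays, with 6 without shPGRN replicate 2 or 3, and 3 to 7 in hPGRN against control cells, against 6, with 3 without hPGRN replicate 2 or 4. Of 24 named calls of related genes, 9 held under every alternative (Maged2 in shPGRN against control, Rec8 in hPGRN against control, Rybp, Trim27 and Pias4 in 2 comparisons each, and Pja2 in shPGRN against hPGRN cells), and none changed direction. Over 552 refits of these calls, 65 missed the threshold. Same-numbered flasks of different lines were not alike (correlations of -0.157 to 0.128 over 12 pairs), so the number only names a flask, and a replicate block gave 1423, 1464 and 677 called genes. For the 5 member probes that missed the filter, values near or below the background limit of 11.3 to 12.3 allow no difference to be detected.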
